A study of Homo sapiens with 8 samples.

Results

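The 9 genes described here are shared targets or ligands of 2 growth-control pathways, and they are read in cells under stress of the endoplasmic reticulum (ER) after an siRNA against XBP1. They are the ligands TGFB1, TGFB2 and EDN1, the secreted matrix proteins CCN1, CCN2 and THBS1, the nuclear cofactor ANKRD1, the junction scaffold AMOTL2 and the inhibitor SMAD7. They were taken by name, 9 of the 18555 genes of the count table, and all 9 had enough counts to be tested. The set was chosen by pathway membership, except that EDN1 was selected on its higher counts in siXBP1 libraries. The difference between the groups was therefore known when the set was drawn up, and the values of that contrast are given below as a description.

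RNA-seq was made from 3 siXBP1 libraries, transfected with siRNA specific for XBP1, and 3 siNC libraries, transfected with Allstar control siRNA. The cells are labelled HepG2, an established line from a human liver tumour. By the labels' protocols both groups received 30 nM thapsigargin for 3 hours, starting 2 days after transfection, so every value is from stressed cells and none is from resting cells. Thapsigargin empties the calcium store of the ER and so triggers the unfolded protein response, of which XBP1 is a transcription factor.

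YAP and TAZ are coactivators held out of the nucleus by the Hippo kinases. In the nucleus they bind TEAD factors and switch on genes such as CCN1, CCN2, ANKRD1 and AMOTL2. TGF-beta ligands bind receptor kinases that phosphorylate SMAD2 and SMAD3, which then enter the nucleus with SMAD4. CCN2, THBS1 and EDN1 answer to both inputs in many cell types, and in the liver CCN2 and TGFB1 are known for their part in fibrosis.

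Promoter sequences are shown because TEAD factors recognise the letters CATTCC, which read GGAATG on the opposite strand. RefSeq (GRCh38.p14) gave 13 start sites for 8 of the 9 genes, all but CCN1, and the 250 bases before each start were searched on both strands. In the following sequences, written 5′ to 3′ on the gene's strand, capitals mark TEAD letters. The 4 genes shown are those with 1 RefSeq start site that hold them.
CCN2 (chr6:131951373-131951622, minus strand): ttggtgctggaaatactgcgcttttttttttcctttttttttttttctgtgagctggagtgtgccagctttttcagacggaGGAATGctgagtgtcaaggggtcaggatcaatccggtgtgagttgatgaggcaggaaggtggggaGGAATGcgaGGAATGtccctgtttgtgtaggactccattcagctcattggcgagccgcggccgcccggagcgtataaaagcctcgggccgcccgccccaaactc
ANKRD1 (chr10:90921088-90921337, minus strand): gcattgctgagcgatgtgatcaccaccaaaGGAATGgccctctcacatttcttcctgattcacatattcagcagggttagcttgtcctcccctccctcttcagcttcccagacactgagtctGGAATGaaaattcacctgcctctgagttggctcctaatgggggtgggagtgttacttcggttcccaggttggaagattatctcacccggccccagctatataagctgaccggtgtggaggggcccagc
THBS1 (chr15:39580829-39581078, plus strand): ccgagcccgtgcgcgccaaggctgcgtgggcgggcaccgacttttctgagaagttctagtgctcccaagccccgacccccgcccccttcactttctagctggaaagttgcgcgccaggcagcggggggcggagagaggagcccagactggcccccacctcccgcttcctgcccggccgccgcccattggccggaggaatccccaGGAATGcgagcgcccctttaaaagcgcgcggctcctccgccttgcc
TGFB2 (chr1:218345086-218345335, plus strand): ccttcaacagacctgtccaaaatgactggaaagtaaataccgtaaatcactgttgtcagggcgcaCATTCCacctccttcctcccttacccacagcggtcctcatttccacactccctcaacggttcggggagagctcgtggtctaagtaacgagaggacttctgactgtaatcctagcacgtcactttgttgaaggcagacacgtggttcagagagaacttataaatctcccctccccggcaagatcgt

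The TEAD letters occurred before at least 1 start site of 6 of the 8 genes, and in 6 of the 13 windows. Over the whole RefSeq table they occurred in 11.9% of 35116 windows and for 14.3% of 27305 genes. CCN2 held 3 matches, at -169, -104 and -95 bases from the start, and only 0.106% of genes held 3 or more in 1 window. ANKRD1 held 2, at -220 and -128, and 1.18% of genes held 2 or more. THBS1 held 1 at -46 and TGFB2 held 1 at -185. AMOTL2 had a match at -69 from start site 2 of its 2, and EDN1 one at -129 from start site 2 of its 3. Several of these genes are textbook TEAD targets, so the matches describe the set and are no independent result. A match of 6 letters is not evidence of binding.

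EDN1, the gene selected for its difference between groups, is shown at the third of its start sites. The first of its 3 start sites lies at 12288019, inside the gene's RefSeq span, which begins at 12230516. No window was searched at the beginning of that span. Here capitals mark 2 matches, CACGT, the reverse of ACGTG, the core recognised by XBP1s, and TGTCTG, the reverse of the SMAD letters CAGACA.
EDN1 (chr6:12290111-12290360, plus strand): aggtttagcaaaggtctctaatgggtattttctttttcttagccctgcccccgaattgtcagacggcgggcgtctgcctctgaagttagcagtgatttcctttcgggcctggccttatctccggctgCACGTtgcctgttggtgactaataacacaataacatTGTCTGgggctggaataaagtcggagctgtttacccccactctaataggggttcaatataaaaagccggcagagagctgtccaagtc

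ACGTG was found for 2 of the 8 genes, EDN1 and TGFB2, against 21.7% of all genes, and CAGACA for 4 of 8, against 16.3%. CCACG, the core of the ER stress element, was found for 4 of 8, against 37.5%. CCACG and ACGTG share letters in EDN1, at the first start site, and in TGFB2, where ACGTG was found on both strands of the same 6 bases from -49 to -44. None of the 8 genes held TGACTCA (AP-1, in 5.19% of genes), TGACGTGG (the longer XBP1s site, which contains ACGTG, in 0.780%), GTCTAGAC (the SMAD palindrome, in 0.231%) or a CArG box (in 1.44%). The 3 windows of SMAD7 held none of the 8 motifs searched.

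**Figure D1:**
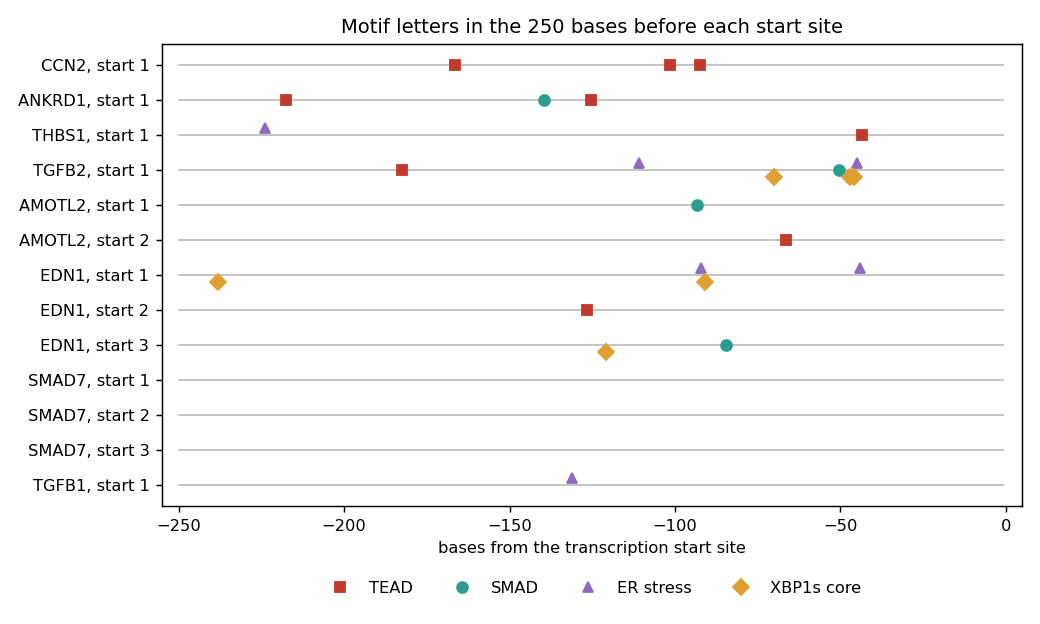
Each line is the 250 bases before 1 RefSeq start site, with distance from the start site in bases on the horizontal axis. Symbols mark matches on either strand to CATTCC (TEAD), CAGACA (SMAD), CCACG (ER stress) and ACGTG (XBP1s core). CCN2 has 3 TEAD matches and ANKRD1 has 2, whereas SMAD7 has no match at its 3 start sites.

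Library totals lay between 38209972 and 38890070 counts, and values are given as CPM, each count scaled to a common library total. CPM take no account of transcript length, so levels are compared between libraries and not between genes. XBP1 itself had 290, 299 and 276 CPM in the siXBP1 libraries, against 552, 502 and 499.6 CPM in the siNC libraries. Its log2 fold change was -0.84 (SE 0.08), which passed edgeR's quasi-likelihood test (Benjamini-Hochberg adjusted p = 0.0331), with the siXBP1 mean at 55.7% of the siNC mean. The adjusted p exceeded 0.05 without siNC replicate 2 (0.175) or replicate 3 (0.213) and without siXBP1 replicate 1 (0.475) or replicate 2 (0.284). The first principal component, with 59.1% of the variance, ran between siXBP1 replicate 3 at one end and siNC replicate 1 at the other and did not follow the groups. Of 10 hepatocyte markers, 5 had a row and none reached a mean of 1 CPM. Their summed level was 0.619 to 1.04 CPM in siXBP1 and 0.257 to 0.591 CPM in siNC libraries, ranges that did not overlap. These sums rest on few counts. HNF4A had the highest mean of the 5, 0.385 CPM, with 0.051 to 0.523 CPM over the libraries. The highest value in any library was 0.155 CPM for AFP, 0.104 CPM for TF and 0.416 CPM for SERPINA1, all proteins that HepG2 cells are known to secrete. ALB, APOA1, APOB, TTR and FGB had no row. KRT17, a keratin, averaged 3364 CPM and the collagen COL3A1 129 CPM over the 6 libraries. Other epithelial markers (KRT5, KRT19, CDH1 and EPCAM) and the collagen COL1A2 stayed below 1 CPM in every library. The near absence of hepatocyte markers goes against the label HepG2, and the cells are called here by their label only.

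TGFB2 and EDN1, 2 secreted ligands, had the largest differences of the set, with siXBP1 means at 151% of the siNC means for both. EDN1, the precursor of the vasoconstrictor peptide endothelin-1 (gene ID 1906, chromosome 6, 12230516 to 12297194), had 59.2, 62.4 and 55.5 CPM in siXBP1 libraries, against 42.6, 34.5 and 40.6 CPM in siNC libraries. Every siXBP1 library lay above every siNC library, with a gap of 12.9 CPM between the nearest values. The log2 fold change was 0.59 (SE 0.12) and ran from 0.50 to 0.65 with 1 library left out. Since the gene was selected on this difference, no test is attached to it.

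TGFB2, a TGF-beta ligand (gene ID 7042, chromosome 1, 218345336 to 218444619), had 10.9, 14.3 and 14.0 CPM in siXBP1 libraries, against 7.61, 7.98 and 10.5 CPM in siNC libraries. The groups did not overlap, but siXBP1 replicate 1 exceeded siNC replicate 3 by 0.477 CPM only, which is 421 against 403 counts and less than the counting SD of that gap (0.746 CPM). The log2 fold change was 0.59 (SE 0.18) and lay between 0.50 and 0.74 with 1 library left out. TGFB1, the ligand best known from liver fibrosis (gene ID 7040, chromosome 19, 41330323 to 41353922), showed no such difference. It had 123, 97.7 and 97.6 CPM in siXBP1 libraries, against 116, 90.0 and 104 CPM in siNC libraries. These values overlapped, and the log2 fold change of 0.04 (SE 0.13) was below 0 without siNC replicate 2 (-0.062) or siXBP1 replicate 1 (-0.079).

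THBS1, thrombospondin-1, a matrix glycoprotein that can release TGF-beta from its latent form (gene ID 7057, chromosome 15, 39581079 to 39599466), was higher in every siXBP1 library. It had 366, 413 and 421 CPM in siXBP1 libraries, against 309, 333 and 345 CPM in siNC libraries, with a gap of 20.8 CPM between the groups. The log2 fold change was 0.28 (SE 0.09), and 0.23 to 0.35 with 1 library left out.

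CCN1 and CCN2, matricellular proteins that are standard readouts of YAP activity, differed less. CCN2 (gene ID 1490, chromosome 6, 131948176 to 131951372) had 175, 203 and 180 CPM in siXBP1 libraries, against 174, 152 and 167 CPM in siNC libraries. The groups were apart by 1.06 CPM, that between siXBP1 replicate 1 and siNC replicate 1, which is less than its counting SD of 3.00 CPM, and the log2 fold change was 0.18 (SE 0.10). CCN1 (gene ID 3491, chromosome 1, 85580761 to 85583950) had 627, 754 and 606 CPM in siXBP1 libraries, against 648, 514 and 602 CPM in siNC libraries. The groups overlapped for CCN1, since siNC replicate 1 exceeded siXBP1 replicates 1 and 3. Its log2 fold change of 0.17 (SE 0.12) was 0.058 without siXBP1 replicate 2 and 0.077 without siNC replicate 2, and that of CCN2 was 0.10 and 0.12.

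ANKRD1, an ankyrin-repeat protein of nucleus and sarcomere and another YAP readout (gene ID 27063, chromosome 10, 90912096 to 90921087), had 18.9, 20.7 and 20.6 CPM in siXBP1 libraries, against 19.3, 14.3 and 18.3 CPM in siNC libraries. Most of its difference came from the low value in siNC replicate 2, without which the log2 fold change was 0.089, against 0.22 (SE 0.14) over all libraries. AMOTL2, an angiomotin relative that binds YAP and restrains it (gene ID 51421, chromosome 3, 134355345 to 134375417), was the most even gene of the set. It had 193, 186 and 182 CPM in siXBP1 libraries, against 193, 176 and 186 CPM in siNC libraries, with a log2 fold change of 0.02 (SE 0.08).

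SMAD7, the inhibitory SMAD that TGF-beta signalling induces as its own brake (gene ID 4092, chromosome 18, 48919853 to 48950965), was the one gene with lower values. It had 23.2, 18.8 and 17.5 CPM in siXBP1 libraries, against 26.3, 25.2 and 24.4 CPM in siNC libraries. The groups did not overlap, with 1.25 CPM between siXBP1 replicate 1 and siNC replicate 3. The counting SD of that gap was 1.11 CPM, and would be larger if mates of a pair were counted separately. The log2 fold change was -0.35 (SE 0.13), and -0.48 to -0.28 with 1 library left out. The spread of SMAD7 was wider in siXBP1 (coefficient of variation 15.0%) than in siNC (3.71%), a difference that was not tested.

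**Figure D2:**
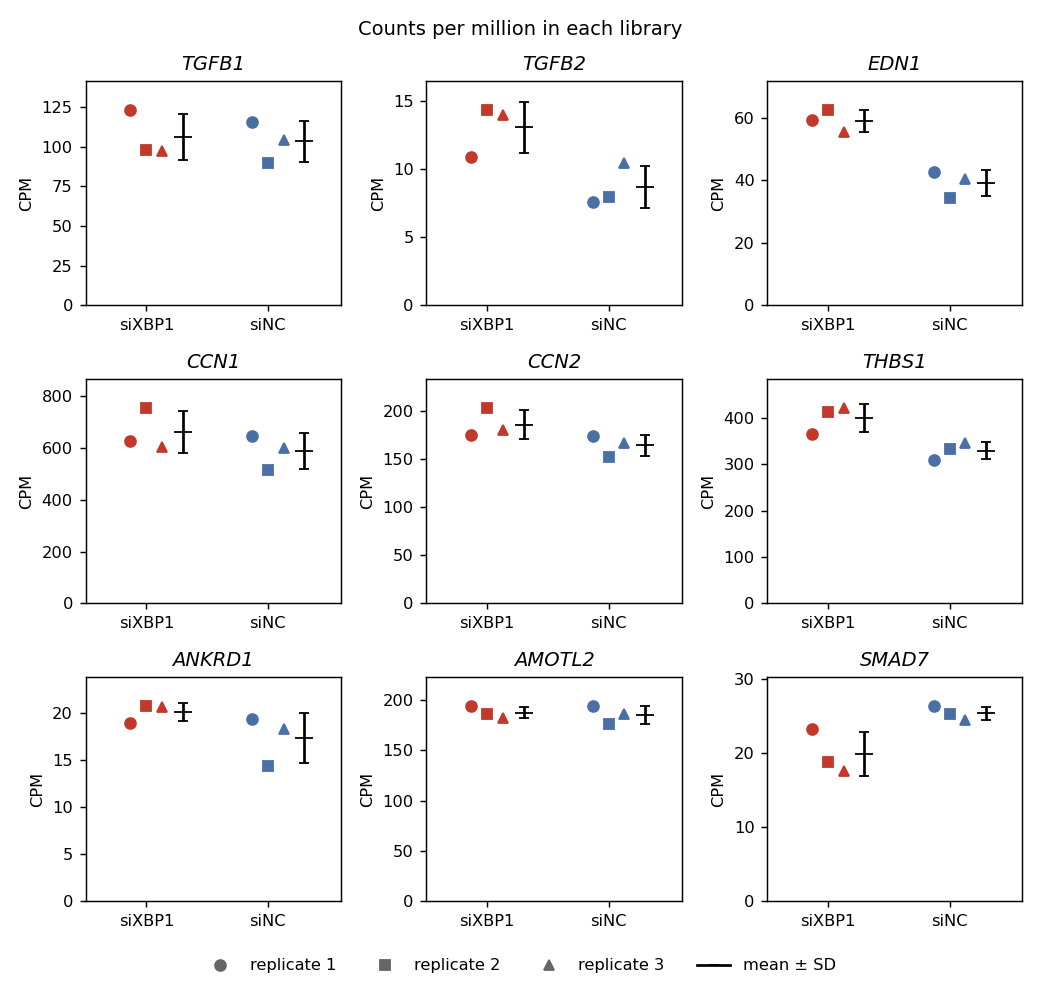
CPM of each gene (vertical axes from 0) in the 3 siXBP1 libraries (red) and the 3 siNC libraries (blue), with marker shapes for replicate numbers and black bars for mean ± SD. EDN1 and THBS1 have clear gaps between the groups, and SMAD7 lies lower in siXBP1. The groups overlap for CCN1, ANKRD1, AMOTL2 and TGFB1.

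The fit across all genes is given here for the 8 genes other than EDN1. By edgeR's quasi-likelihood test, 0 of the 8 passed an adjusted p of 0.05, as against 0.00697% of 14337 genes tested, which is XBP1 alone. At an unadjusted p under 0.05 there were 3 of the 8 (TGFB2, THBS1 and SMAD7), against 3.61% of genes tested. Values did not overlap between groups for 4 of the 8, against 8.75% of genes tested. Of these, 3 were higher in siXBP1 (5.01% of genes tested) and 1 was lower (3.74%). The median log2 fold change of the 8 was 0.18, against 0.01 over all genes tested. DESeq2 passed 0 of the 8 (0.105% of genes tested), and limma-voom passed 0. When the fit included each library's score on that first component, 1 of the 8 passed, THBS1 (1.20% of genes tested). The score was computed from the same 6 libraries, so its standard errors may be too small. Nothing is read from these counts about the set, because it was drawn up with this contrast known.

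**Figure D3:**
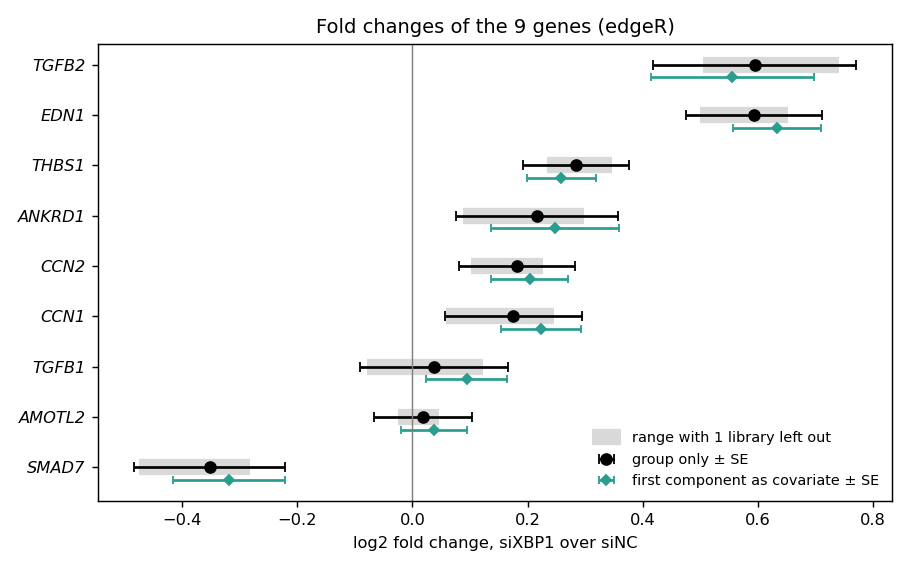
Log2 fold change of siXBP1 over siNC (horizontal axis) for each gene, with black points for the fit on group only, green diamonds for the fit with the first component as a covariate (bars ± SE), and grey bars for the range with 1 library left out. TGFB2 and EDN1 lie near 0.59, SMAD7 at -0.35, and the grey bars of AMOTL2 and TGFB1 cross 0.

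Replicate libraries differed from each other in a way that several of the genes shared. The lowest of all 6 values was in siNC replicate 2 for 6 genes (CCN1, CCN2, ANKRD1, EDN1, AMOTL2 and TGFB1), whereas this library was lowest for 13.2% of genes tested. That contrast also takes in the difference between groups, for which EDN1 was selected. Among the siNC libraries alone, replicate 2 was lowest for the same 6 genes, against 35.3% of genes tested. Relative to its mean log2 CPM, CCN1 stood there at -0.27, ANKRD1 at -0.37 and EDN1 at -0.48. The highest value was in siXBP1 replicate 2 for CCN1, CCN2, ANKRD1, EDN1 and TGFB2. For CCN2, EDN1 and TGFB2 it could fall only in a siXBP1 library, since the groups did not overlap. The share of all genes tested that were highest in siXBP1 replicate 2 was not computed. TGFB2 and THBS1 had their lowest value in siNC replicate 1, which was the lowest library for 28.1% of genes tested. SMAD7 was highest and TGFB2 lowest in siNC replicate 1, but both stood at 0.05 above their means in siXBP1 replicate 1. Their opposite differences between groups enter into this. Within siNC the coefficient of variation ran from 3.71% (SMAD7) to 17.9% (TGFB2), and within siXBP1 from 3.08% (AMOTL2) to 15.0% (SMAD7). The medians over 10745 genes of at least 5 CPM were 11.0% in siXBP1 and 9.76% in siNC.

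**Figure D4:**
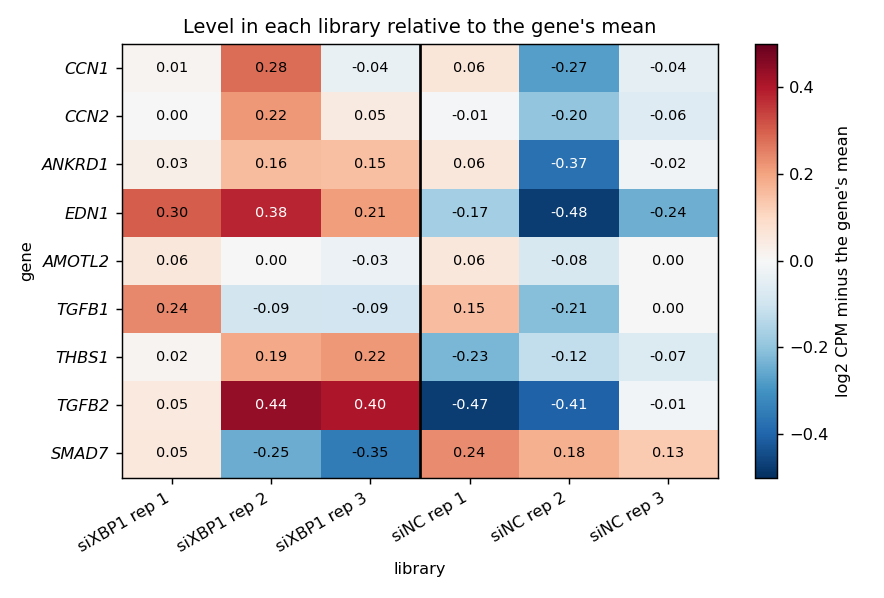
Colour and number give log2 CPM minus the gene's mean over the 6 libraries, for 9 genes (rows) in the 3 siXBP1 libraries (left of the line) and the 3 siNC libraries (right). The siNC replicate 2 column is lowest in 6 rows, and EDN1 is above its mean in all siXBP1 and below it in all siNC libraries.

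Among 10744 other genes of at least 5 CPM, those with the pattern most like EDN1 over the 6 libraries were FGFBP1, FAM167A, SALL4, ATF3 and TNFAIP3. Likeness was the root mean square difference of centred log2 CPM, which was 0.05 for FGFBP1 and 0.10 for TNFAIP3, against a median of 0.35 over all genes compared. The measure takes in the difference between groups for which EDN1 was selected. Higher siXBP1 means in the nearest genes therefore follow from the choice and are given as a description only. FGFBP1, which encodes a carrier of fibroblast growth factors, had 12.6 ± 1.12 CPM in siXBP1 and 8.34 ± 0.998 CPM in siNC (SD, n = 3 each). ATF3, a stress-induced transcription factor, had 107 ± 7.82 CPM in siXBP1 and 79.5 ± 6.99 CPM in siNC. TNFAIP3, which restrains NF-kB, had 244 ± 10.5 CPM in siXBP1 and 174 ± 14.2 CPM in siNC. Within the set ANKRD1 came nearest to EDN1, at rank 114 with a difference of 0.20, and SMAD7 farthest, at rank 10344 with 0.50.

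EDN1 is abundant in endothelial cells, so endothelial markers were read beside it. Their summed level was 15.0 to 18.3 CPM in siXBP1 libraries and 16.2 to 19.7 CPM in siNC libraries, from 7 of 8 markers with a row, 2 of which reached a mean of 1 CPM. These ranges overlapped. CDH5 and ESAM reached 8.51 and 9.03 CPM at most, whereas TIE1 did not exceed 0.129 CPM. Fibroblast markers summed to 346 to 353 CPM in siXBP1 and 323 to 340 CPM in siNC libraries, and 5 of 6 reached 1 CPM, COL1A2 being near 0. These ranges did not overlap, siXBP1 being higher, and their part in the values of the 9 genes was not tested. COL1A1 went the other way, with 39.1 ± 7.53 CPM in siXBP1 and 44.6 ± 4.47 CPM in siNC (SD, n = 3 each). Of 3 leukocyte markers with a row, PTPRC and CD14 stayed below 1 CPM and CD68 did not, with list sums of 40.5 to 43.5 CPM in siXBP1 and 37.5 to 44.1 CPM in siNC. The markers of other epithelial lines summed to 4163 to 5289 CPM in siXBP1 and 4257 to 5673 CPM in siNC. Of these 6 markers only 2, KRT17 and KRT7, reached a mean of 1 CPM. The means over all libraries were 0.578 CPM for KRT19, 0.380 for CDH1, 0.026 for EPCAM and 0.017 for KRT5. In bulk RNA, fewer cells of a type and less RNA per cell cannot be told apart.

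None of the other genes of both pathways passed the fit on group only. Of 135 tested genes in 8 lists, 83 had higher and 52 lower estimates (61.5% higher, against 52.8% of all genes tested), with a median log2 fold change of 0.04 against 0.01 over all genes tested. By edgeR 0 passed in either direction, 11 (8.15%) had an unadjusted p under 0.05, against 3.61% of genes tested, and DESeq2 and limma-voom called 0 as well. The groups did not overlap for 16 of the 135 with siXBP1 higher, against 5.01% of genes tested. For 2 of the 135 they did not overlap with siXBP1 lower, against 3.74%. With the first component as a covariate 5 passed (3.70%, against 1.20% of genes tested), all higher in siXBP1. They were INHBA, CDKN2B, FRMD6, NUAK2 and CCN3, in 5 different lists.

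Of 18 TGF-beta family ligands and latency proteins, 10 estimates were higher and 8 lower (median log2 fold change 0.01, 0 called). FSTL1 and FSTL3, follistatin-like proteins, were the most abundant in CPM, with log2 fold changes of -0.01 (SE 0.09) and -0.23 (SE 0.13). LTBP4, which anchors latent TGF-beta in the matrix, had -0.24 (SE 0.14). Of 13 receptors, 10 were higher and 3 lower (median 0.08, 0 called). TGFBR1, the kinase that phosphorylates SMAD2 and SMAD3, had 75.3 ± 19.9 CPM in siXBP1 and 74.0 ± 12.6 CPM in siNC (SD, n = 3 each), which is 0.03 on the log2 scale (SE 0.19). ENG, a coreceptor, had -0.04 (SE 0.12). The activin and BMP receptors ACVR1B (0.27, SE 0.14) and ACVR1 (0.18, SE 0.12) had higher estimates. Their groups did not overlap, but only narrowly. For ACVR1B the nearest values were 17.97 CPM in siXBP1 replicate 2 and 17.92 CPM in siNC replicate 1. For ACVR1 they were 29.05 CPM in siXBP1 replicate 3 and 28.63 CPM in siNC replicate 2. The counting error of these gaps was not computed.

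Of 21 SMADs and regulators, 15 were higher and 6 lower (median 0.04, 0 called). The log2 fold change was -0.02 (SE 0.09) for SMAD2 and 0.20 (SE 0.10) for SMAD1, which acts downstream of BMPs. BAMBI, a decoy receptor induced by TGF-beta and Wnt signals, had 0.22 (SE 0.12), whereas SMAD7, another inhibitor, was lower as given above. USP9X, a deubiquitinase that acts on SMAD4, had 0.06 (SE 0.15). Of 25 TGF-beta and SMAD targets, 13 were higher and 12 lower (median 0.00, 0 called). FN1, fibronectin, had 1030 ± 160 CPM in siXBP1 and 961 ± 52.5 CPM in siNC, with a log2 fold change of 0.10 (SE 0.11), and BHLHE40, a circadian repressor, had -0.07 (SE 0.10). CDKN2B, the cell cycle inhibitor p15, had 115 ± 5.41 CPM in siXBP1 and 95.2 ± 2.51 CPM in siNC, a log2 fold change of 0.27 (SE 0.09), with no overlap. ID2, a repressor of helix-loop-helix factors, had -0.40 (SE 0.16).

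Of 29 Hippo kinases, coactivators and TEADs, 20 were higher and 9 lower (median 0.08, 0 called). YAP1 had 952 ± 207 CPM in siXBP1 and 899.96 ± 120 CPM in siNC, a log2 fold change of 0.08 (SE 0.15), and TEAD1 had one of -0.09 (SE 0.18). FRMD6, an upstream Hippo component, had 82.5 ± 9.97 CPM in siXBP1 and 64.2 ± 10.7 CPM in siNC, a log2 fold change of 0.36 (SE 0.14), and MOB1B, a kinase cofactor, had 0.32 (SE 0.29). Of 17 further YAP and TAZ targets from a signature over cancers, 11 were higher and 6 lower (median 0.06, 0 called). MYOF, a protein of membrane repair (0.04, SE 0.11), and CRIM1, which binds BMPs (0.15, SE 0.11), were the most abundant in CPM. NUAK2, a kinase, had 0.31 (SE 0.13) and F3, tissue factor, had 0.24 (SE 0.11).

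Of 5 tested genes of the endothelin system, 3 were higher and 2 lower (median 0.10, 0 called). EDNRA, the type A receptor for endothelin-1, had 16.1 ± 1.41 CPM in siXBP1 and 12.7 ± 0.917 CPM in siNC (SD, n = 3 each), which is 0.34 on the log2 scale (SE 0.13) with no overlap between groups. ECE1, which cleaves the precursor to endothelin-1, had 0.10 (SE 0.09), and ECE2 had -0.07 (SE 0.14). Of 7 tested relatives of the 9 genes, 1 was higher and 6 lower (median -0.21, 0 called). The one higher was CCN3, a CCN family member, with 72.3, 70.9 and 73.8 CPM in siXBP1 libraries, against 51.1, 57.3 and 58.3 CPM in siNC libraries, a log2 fold change of 0.38 (SE 0.10). CCN5, of the same family, had -0.21 (SE 0.17) with overlapping values.

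**Figure D5:**
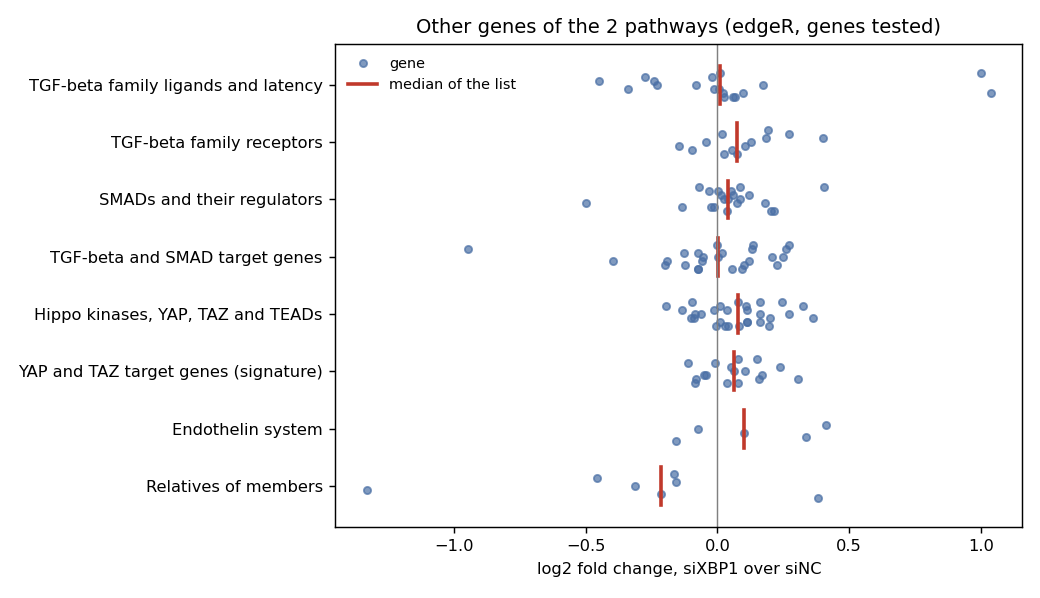
Log2 fold change of siXBP1 over siNC (horizontal axis) for each tested gene of 8 lists of pathway genes other than the 9 described above (rows), with the list's median as a red line. The medians lie between -0.21 and 0.10.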

How the data were processed

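The authors deposited whole-number read counts per NCBI Gene ID, not normalized, 1 column per library. Per the submitters' processing notes the tools were STAR 2.5.2a, featureCounts 1.5.0 and Subread, with hg38. No annotation or strand setting is given in the sources used here, so reads of overlapping antisense genes may not be told apart. Among counts from 1 to 40, 75.8% to 80.5% were even, so mates of a pair may be counted separately. The ChIP-seq samples were not analysed here. Symbols (18526 of 18555 IDs matched), positions and promoters come from RefSeq, GRCh38.p14.

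Genes kept by filterByExpr were TMM-normalized and tested with edgeR 4.0.16 (R 4.3.3), two-sided, group only, with 4 residual degrees of freedom. P-values were adjusted by Benjamini-Hochberg over the 14337 genes tested, and 0.05 was the threshold. SE is the log2 fold change divided by the square root of F. Alternatives were other scalings, no filter or 1 CPM in 3 libraries, DESeq2 1.42.0, limma-voom (3.58.1), a replicate block, leaving out libraries, the score on the first principal component (over 11528 genes averaging 100 counts or more) as a covariate, and an adjusted p under 0.01.

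The 9 genes, the lists, the motifs and the covariate were chosen with earlier results of these data known. Named list genes are the 2 of highest mean CPM and the 2 of largest change at 5 CPM or more, called genes first. Log2 CPM used a pseudocount of 0.5. Nothing in the labels shows whether replicates were grown separately, and the p-values then measure only a spread between libraries that may be technical. At these depths 3 counts are 0.077 to 0.079 CPM, and no gene of the set had under 296 counts, a limit of counting error only.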

Additional observations from a re-analysis of the deposited data

How the results depend on the processing

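With 1 library left out in turn the number of genes called over the whole table lay between 0 and 1, that over the pathway lists stayed at 0 (from 0 to 0), and the log2 fold change of XBP1 between -0.88 and -0.80. The sign of AMOTL2 (-0.026 to 0.047) and of TGFB1 (-0.079 to 0.12) was not stable in these fits, and the other 7 genes kept theirs under all alternatives run. Upper-quartile scaling gave 0 calls, XBP1 included (-0.85, adjusted p = 0.0546), and an adjusted p under 0.01 gave 0. DESeq2 gave 15 calls. The first component as a covariate gave 172 calls, 5 of them in the lists. Without siXBP1 replicate 3 and siNC replicate 1, its 2 extremes, a fit on 2 libraries a group, gave 702 calls (209 higher, 493 lower). Of these, 13 were in the lists (6 higher, 7 lower). The fit on all libraries tested 14337 genes, 135 of them in the lists. Of the 8 genes other than EDN1, CCN1 alone passed in the fit on 2 libraries a group (log2 fold change 0.31, edgeR adjusted p = 0.0357). The filter on low counts was run anew for that fit, and the number of genes it tested is not given here. No share of genes tested can therefore be set beside its calls, and nothing is read from them about the set or the lists. The cause of these changes in the number of calls was not tested. Deviations from the group means of same-numbered libraries correlated at 0.60, -0.36 and 0.43 for numbers 1, 2 and 3. Those of differently numbered libraries ran from -0.75 (siXBP1 replicate 3 with siNC replicate 1) to 0.65 (siXBP1 replicate 3 with siNC replicate 2). Deviations within a group sum to 0, so these correlations are not independent and cannot settle whether the replicate numbers pair the libraries. With the replicate block 1 gene was called, XBP1 at -0.84, and 0 in the lists. Depth was similar in all libraries. Within the set, the smallest gaps between groups, those of TGFB2 and CCN2, were within counting error. That of SMAD7 (1.25 CPM) was little above its counting SD (1.11 CPM).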

Other observations

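INHBA and FST fell below the level of 5 CPM that the rule for named genes asks for, and are given here after their values were seen. INHBA encodes the subunit of activin A, a TGF-beta family ligand that signals through SMAD2 and SMAD3. It had 6.58, 4.62 and 7.67 CPM in siXBP1 libraries, against 3.09, 2.14 and 4.21 CPM in siNC libraries. The groups did not overlap, but the nearest values were 4.62 CPM in siXBP1 replicate 2 and 4.21 CPM in siNC replicate 3. The counting error of that gap was not computed. The log2 fold change of 1.00 (SE 0.27) did not pass edgeR's test (adjusted p = 0.9998). FST encodes follistatin, which binds and neutralises activin. It had 2.65, 2.89 and 3.04 CPM in siXBP1 libraries, against 1.85, 1.34 and 0.987 CPM in siNC libraries, a log2 fold change of 1.04 (SE 0.28, edgeR adjusted p = 0.9998). These were the largest higher estimates among the 135 genes of the pathway lists.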
